A study of Mus musculus with 6 samples.

Results

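The 10 genes described here encode parts of the circadian clock, and they were read in osteocyte-containing bone of the mouse with and without parathyroid hormone (PTH). They are the activators *Arntl* and *Clock*, the repressors *Per1*, *Per2*, *Per3*, *Cry1* and *Cry2*, the nuclear receptor *Nr1d1*, the output factor *Dbp* and the repressor *Bhlhe40*. Members were taken by gene symbol alone, 10 of the 31508 symbols on the array, and *Bhlhe40* is listed there by its older symbol *Bhlhb2*. They are covered by 17 of the 45281 probes. The material was cortical bone tubes, shafts of femur and tibia from C57BL6 mice aged 3 months. The shafts were flushed to remove marrow and digested with collagenase and trypsin to strip the surface cells. Tubes of both groups were kept overnight in medium with fetal calf serum and moved to fresh medium the next day. Control tubes (3 arrays) then received no hormone and PTH tubes (3 arrays) received PTH 1-34, the amino-terminal fragment that activates the receptor, at 250 nM for 24 hours. Bones of 4 to 5 mice were pooled per experiment, about 10 bones per preparation. The labels name no separate cultures behind the replicate numbers, so the p-values below measure only the spread between these arrays.

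In the clock of mammalian cells, ARNTL (also called BMAL1) and CLOCK pair and switch on genes that carry E-box sequences, among them *Per*, *Cry*, *Nr1d1*, *Dbp* and *Bhlhe40*. PER and CRY proteins return to the nucleus and repress the pair, and NR1D1 represses *Arntl*, so the transcripts rise and fall over the day in different phases. Most cells carry such a clock, bone cells included, and fresh serum or a rise in cyclic AMP, the messenger made when PTH binds its receptor, can reset it, with *Per1* as a rapidly responding gene. All tubes were collected at a single time after the medium change, so a change of level and a shift of phase cannot be told apart in these data.

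The signals carry the limits of a whole-tissue array. The share of probes detected, with a detection p under 0.05 against the negative controls, was 34.2% to 38.4% per array, and such probes are called above background here. Of 12 osteocyte and osteoblast markers, 9 were above background on all 6 arrays, and *Fgf23* and *Runx2* on none. *Mepe*, a matrix protein of osteocytes, was among those detected, and *Sost* was detected on 3 control arrays and 1 PTH array. Markers of other cells were present too, with 8 of 8 neutrophil markers and 6 of 6 macrophage markers above background on all 6 arrays and 5 of 6 skeletal muscle markers on none. In such RNA, fewer cells of a type and less RNA per cell cannot be told apart.

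Of the 10 clock genes, 7 could be tested and 1 of them, *Dbp*, rose with PTH at an adjusted p under 0.05, while none fell. Of all 11979 genes tested, 0.685% were called higher with PTH and 1.04% lower. Without adjustment, 2 of the 7 genes had a limma p under 0.05, *Dbp* and *Per2*, both higher, where 7.51% of all genes were higher at that level and 14.9% passed it in either direction. The 7 genes were *Arntl*, *Clock*, *Per1*, *Per2*, *Nr1d1*, *Dbp* and *Bhlhe40*, and a gene was tested where 1 of its probes was detected on 3 arrays or more. They had 11 such probes, of which the 1 for *Dbp* was called higher, against 0.617% of all probes tested called higher and 1.61% called either way. For 3 of the 7 genes, *Dbp*, *Per2* and *Bhlhe40*, the normalized PTH values exceeded all control values by the brightest probe. That pattern was held by 11.1% of all genes tested. Taking the brightest probe of each gene, the median log2 change was 0.04, against 0.01 for all genes tested, and the changes ran from -0.02 (*Arntl*) to 0.82 (*Dbp*). That median moved to 0.26 without control replicate 2, to 0.13 without control replicate 3, to 0.11 without PTH replicate 2, to 0.20 without PTH replicate 3 and to 0.21 with the mean of a gene's probes. The remaining genes, *Per3*, *Cry1* and *Cry2*, were too close to background to be tested.

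**Figure D1:**
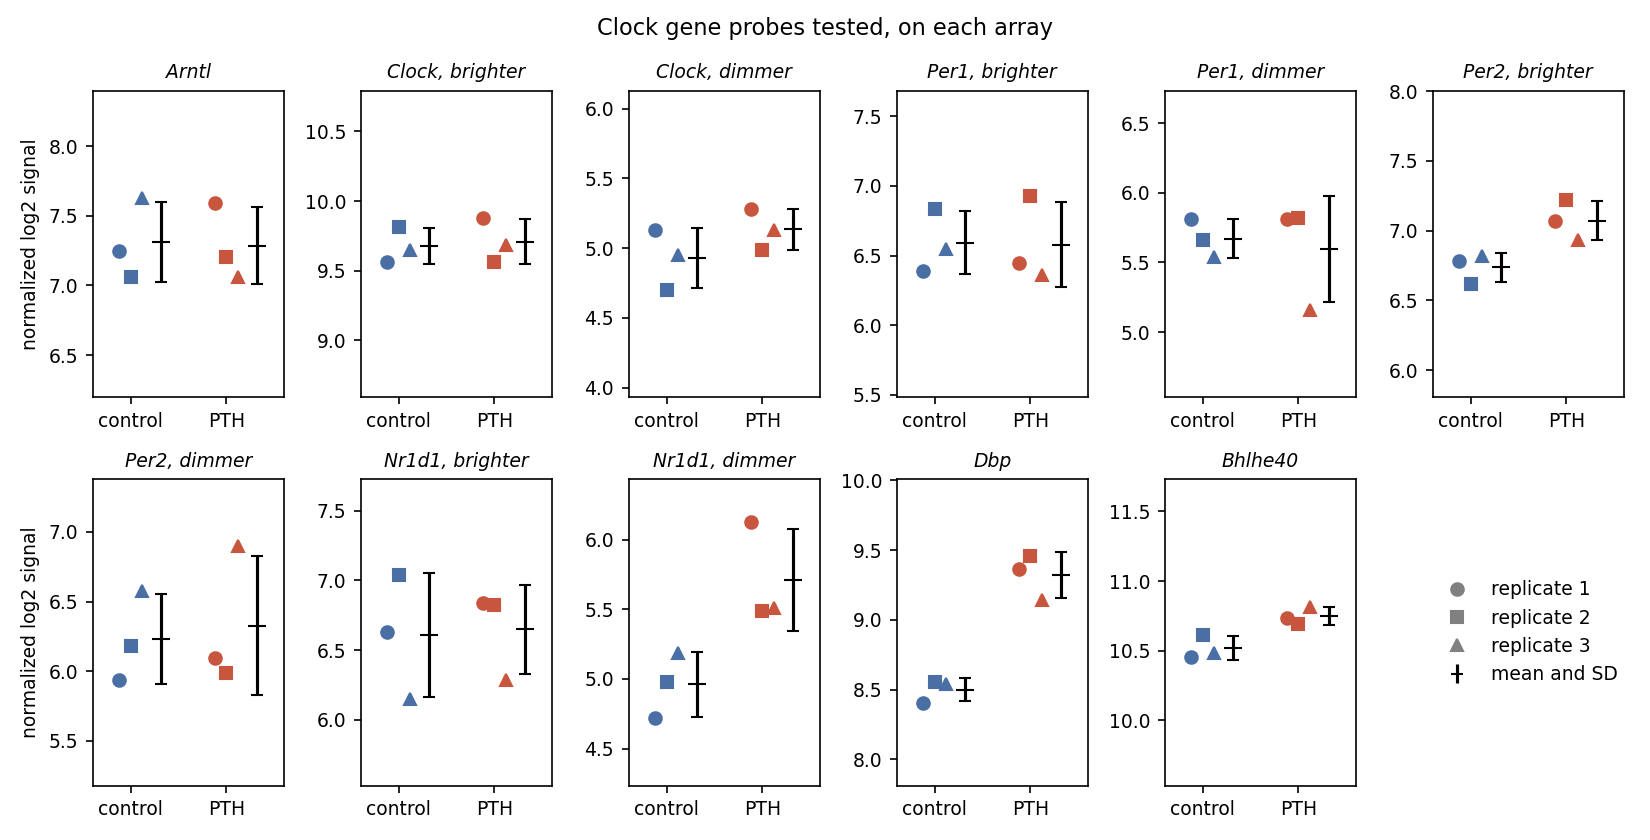
Normalized log2 signal of the 11 clock gene probes tested, on each control (blue) and PTH (red) array, with symbols for the replicate number and the group mean with its SD (n = 3) beside the points. Every panel spans the same range of log2 units, and *Dbp* shows the clearest separation, with PTH arrays between 9.14 and 9.46 above control arrays between 8.41 and 8.56.

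*Dbp* encodes a transcription factor of the PAR bZIP family that carries the rhythm of the clock to other genes through D-box sequences. Before normalization its signal in control tubes was 366, 473 and 461, and with PTH it was 627, 825 and 887. After normalization the log2 signal read 8.41, 8.56 and 8.54 in control tubes and 9.37, 9.46 and 9.14 with PTH. The 3 PTH arrays were the highest in both readings with no overlap, although PTH replicate 3 passed from the highest of them before normalization to the lowest after it. From 8.50 ± 0.08 (SD, n = 3) to 9.32 ± 0.16 (SD, n = 3), the log2 fold change was 0.82 (SE 0.13), a rise of 1.77-fold with a 95% interval from 1.43-fold to 2.19-fold (limma adjusted p = 0.0295). The spread between replicates of *Dbp*, an SD of 0.13, was close to the median of 0.14 for probes of like level.

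The call on *Dbp* rested on all 6 arrays, while its direction held in all 13 limma alternatives run. In most of these the direction could not turn. Every PTH array exceeded every control array, so leaving out 1 array keeps the sign. A changed filter or a block on replicate number leaves the log2 fold change as it was. Only the changes of normalization could have turned the sign of *Dbp*. Without control replicate 1, 2 or 3 its limma adjusted p was 0.121, 0.103 or 0.0924, and without PTH replicate 1, 2 or 3 it was 0.101, 0.106 or 0.0566, with log2 fold changes between 0.75 and 0.91. Median scaling also lost the call (limma adjusted p = 0.0669), at a log2 fold change of 0.98, or 0.86 relative to a shift of 0.12 of all genes. So did the fit with the replicate number as a block (limma adjusted p = 0.085). The methods' t-test after Benjamini-Hochberg adjustment lost it too, a test the study names for comparisons of 2 groups but not for its arrays. An exact permutation test of 3 arrays against 3 can give no p below 0.1.

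Markers of other cells moved in the same comparison, and their part in the result for *Dbp* was not tested. The sums given below are of deposited signals before normalization, so differences in brightness between arrays enter them. On PTH replicate 3 the brightest *Clock* probe, for instance, gave 1260, against 857 and 875 on PTH replicates 1 and 2. After normalization its log2 fold change was 0.03. Of 8 neutrophil markers 5 were called lower, and their summed deposited signal ran from 45926 to 55718 on control arrays and from 30309 to 50154 on PTH arrays. All 8 were lower at an unadjusted limma p under 0.05, a level passed in either direction by 14.9% of all genes tested. Of 6 red cell markers 2 were called lower and *Klf1* was above background on no array, with sums from 8567 to 10069 and from 2721 to 3901. Of 12 osteocyte and osteoblast markers 3 were called lower, among them *Mepe* (log2 fold change -1.02, limma adjusted p = 0.0128), with sums from 27618 to 35639 and from 18376 to 32403. All 10 tested had an unadjusted limma p under 0.05, 9 of them lower. The other 1, *Pdpn*, was higher (log2 fold change 0.70, limma adjusted p = 0.056). Of 6 osteoclast markers 2 were called higher, with sums from 10513 to 13669 and from 13910 to 28321, and *Calcr*, *Ocstamp* and *Atp6v0d2* were not above background on any array. All 3 osteoclast markers tested were higher at an unadjusted limma p under 0.05. None of 6 macrophage markers was called by limma, with 2 at an unadjusted p under 0.05, and their sums ran from 10124 to 14370 and from 10031 to 20065. Likewise none of 5 endothelial markers and none of 5 fat markers was called, with 0 and 2 at that level.

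The window before the start of *Dbp* is shown because it is the member that was called, and 2 windows of *Per1* because that gene is known for its cyclic AMP response. The sequences are from RefSeq (GRCm38.p6), each the 250 bases before a transcript start, 5′ to 3′ on the strand of the gene. *Dbp* lies on the plus strand at chr7:45704997-45705246, and the *Per1* windows on the plus strand at chr11:69098699-69098948 and chr11:69099902-69100151. Capitals mark matches, on either strand, to the E-box CACGTG, the variant E-box CACGTT, the cyclic AMP response element (CRE) TGACGTCA, its core TGACG, which the full CRE also holds, the ROR element AGGTCA and the D-box TTATGNAA.
Dbp: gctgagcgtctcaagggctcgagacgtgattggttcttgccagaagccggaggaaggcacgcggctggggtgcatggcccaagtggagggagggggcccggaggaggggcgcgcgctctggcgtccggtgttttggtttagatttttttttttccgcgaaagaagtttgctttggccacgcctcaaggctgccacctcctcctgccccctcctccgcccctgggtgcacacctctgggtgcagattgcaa
Per1, first start: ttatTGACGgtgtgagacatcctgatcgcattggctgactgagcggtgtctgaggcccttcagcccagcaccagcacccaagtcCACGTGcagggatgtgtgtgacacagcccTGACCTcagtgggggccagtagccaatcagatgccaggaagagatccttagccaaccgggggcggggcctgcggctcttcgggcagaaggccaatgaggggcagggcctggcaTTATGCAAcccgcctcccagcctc
Per1, second start: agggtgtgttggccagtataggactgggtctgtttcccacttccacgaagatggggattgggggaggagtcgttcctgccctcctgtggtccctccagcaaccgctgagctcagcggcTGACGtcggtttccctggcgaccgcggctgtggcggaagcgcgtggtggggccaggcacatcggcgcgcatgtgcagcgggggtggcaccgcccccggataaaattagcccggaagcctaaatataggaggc
No letters of these motifs occur before the start of *Dbp*. The first *Per1* window holds an E-box, a CRE core, a ROR element and a D-box, and the second holds a CRE core. Over all 32851 promoter windows of 300 bases, which run 50 bases past the start, 7.15% hold the E-box, 4.68% the variant E-box, 1.79% the full CRE, 20.8% the CRE core, 16.3% the ROR element and 3.38% the D-box. Such a match is a description of the letters and no evidence of binding. Promoter windows were found for 8 of the 10 genes, all but *Per2* and *Bhlhe40*.

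*Nr1d1* encodes REV-ERBα, a nuclear receptor that represses *Arntl*, and its 2 probes gave different values. On the brighter probe the normalized log2 signal was 6.63, 7.04 and 6.15 in control tubes and 6.84, 6.83 and 6.28 with PTH. The groups overlapped, with the lowest value of each on the array numbered 3, and the log2 fold change was 0.04 (SE 0.25, limma adjusted p = 0.963). On the dimmer probe the control arrays read 4.72, 4.98 and 5.18 and the PTH arrays 6.13, 5.49 and 5.51.

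On that dimmer probe of *Nr1d1* the PTH arrays exceeded all control arrays after normalization, yet the log2 fold change of 0.75 (SE 0.21) was not called (limma adjusted p = 0.154). The probe was detected on 3 PTH arrays but on only 1 control array, so it was tested because of its level with PTH, its control level is close to the limit of the array, and without background correction the log2 fold change was 0.25. The 250 bases before the start of *Nr1d1*, a gene of the minus strand (RefSeq GRCm38.p6, chr11:98775378-98775627), hold the variant E-box alone of the motifs above.
Nr1d1: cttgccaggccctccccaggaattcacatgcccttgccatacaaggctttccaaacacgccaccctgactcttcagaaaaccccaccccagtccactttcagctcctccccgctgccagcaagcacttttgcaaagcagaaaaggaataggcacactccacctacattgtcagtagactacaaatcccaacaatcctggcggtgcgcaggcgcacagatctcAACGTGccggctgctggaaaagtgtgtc
The match reads AACGTG on this strand, the reverse complement of the searched letters.

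*Arntl* and *Clock*, the activators, showed no call in either direction. *Arntl* read 7.24, 7.06 and 7.62 in control tubes and 7.59, 7.20 and 7.06 with PTH, with overlapping groups and a log2 difference of -0.02 (SE 0.20, 95% interval -0.48 to 0.43, limma adjusted p = 0.971). The brightest probe of *Clock* read 9.56, 9.82 and 9.65 in control tubes and 9.88, 9.56 and 9.68 with PTH. These groups overlapped as well, and the log2 fold change was 0.03 (SE 0.14, 95% interval -0.29 to 0.36, limma adjusted p = 0.944). The intervals still allow a fold of 0.716 to 1.35 for *Arntl*. A dimmer probe of *Clock*, detected on 1 control and 2 PTH arrays, differed by 0.21 (SE 0.15, limma adjusted p = 0.609), and a further *Clock* probe was above background on none. Under median scaling, which shifts all genes by 0.12, the sign of *Arntl* turned, to 0.09, and *Clock* read 0.21, or -0.03 and 0.09 relative to that shift. The sign of both also turned with some arrays left out, over a range from -0.18 to 0.13 for *Arntl* and from -0.05 to 0.11 for *Clock*.

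The *Per* genes encode the period proteins that repress the activator pair. *Per1* read 6.39, 6.83 and 6.55 in control tubes and 6.45, 6.93 and 6.36 with PTH on its brighter probe, which makes a log2 difference of -0.01 (SE 0.19, 95% interval -0.46 to 0.43, limma adjusted p = 0.984). Its groups overlapped almost fully, the highest array of each being the one numbered 2, and under median scaling the sign turned, to 0.07, or -0.05 relative to the shift. The dimmer *Per1* probe, detected on all 6 arrays, differed by -0.08 (SE 0.20, limma adjusted p = 0.906). At 24 hours neither probe of *Per1* was called, and the arrays cover no earlier time.

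*Per2* had 3 probes with different values. The brightest read 6.78, 6.62 and 6.82 in control tubes and 7.07, 7.22 and 6.93 with PTH. The groups did not overlap after normalization, although the lowest PTH value exceeded the highest control by little. In the deposited signal they overlapped, with 185, 202 and 205 in control tubes and 197, 240 and 271 with PTH. The log2 fold change of 0.33 (SE 0.13, 95% interval 0.03 to 0.64), or 1.26-fold, was not called (limma adjusted p = 0.298). The second probe, detected on all 6 arrays, read 5.94, 6.18 and 6.58 and then 6.09, 5.99 and 6.90, a difference of 0.10 on the log2 scale (SE 0.27, limma adjusted p = 0.913). Its groups overlapped, and its highest array in each group was the one numbered 3. The third *Per2* probe was above background on control replicate 2 alone and was not tested.

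*Bhlhe40* encodes a basic helix-loop-helix repressor (also called DEC1) that competes for E-boxes and also answers to other stimuli, such as low oxygen. It read 10.45, 10.61 and 10.48 in control tubes and 10.73, 10.69 and 10.82 with PTH. After normalization the PTH arrays were the 3 highest, by a narrow margin. In the deposited signal the groups overlapped, with 1224, 1646 and 1510 in control tubes and 1474, 1799 and 2608 with PTH. The log2 fold change was 0.23 (SE 0.12, 95% interval -0.05 to 0.51), or 1.17-fold, and no call was made (limma adjusted p = 0.43). It stayed above 0 in all 13 limma alternatives, as did the brightest probe of *Per2*, and neither was called in any of them. Since the PTH arrays were the highest for both after normalization, only the changes of normalization could have turned these signs.

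**Figure D2:**
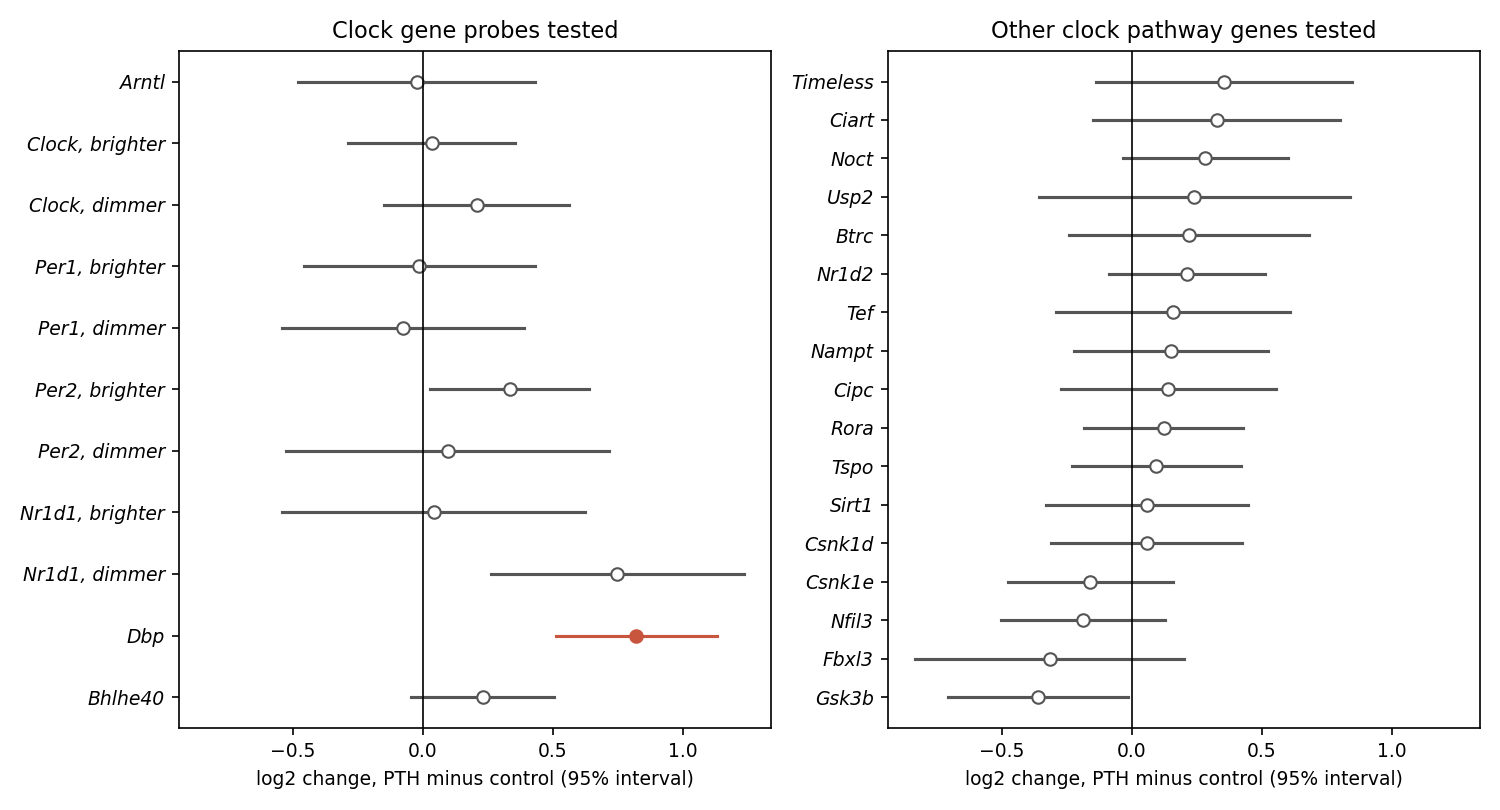
Log2 change (PTH minus control) with its 95% interval for the 11 clock gene probes tested (left) and for the brightest probe of 17 other clock pathway genes (right), filled where the limma adjusted p is under 0.05. Of these, *Dbp* alone is filled, at 0.82.

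Replicate spread differed between the clock genes. The SD within groups was 0.39 for the brighter *Nr1d1* probe and 0.28 for *Arntl*, against medians of 0.23 and 0.20 for tested probes of like level. It was 0.08 for *Bhlhe40* and 0.12 for the brightest *Per2* probe, against medians of 0.11 and 0.22. Among control arrays *Arntl* was highest and the brighter *Nr1d1* probe lowest on replicate 3. On replicate 2 *Arntl* was lowest and that *Nr1d1* probe highest. The dimmer *Nr1d1* probe did not share this order, with 4.72, 4.98 and 5.18 on control replicates 1, 2 and 3. Among PTH arrays *Arntl* and the brighter *Nr1d1* probe were both highest on replicate 1 and lowest on replicate 3. With 3 arrays a group these orders are a description.

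*Per3*, *Cry1* and *Cry2* were at or near the background of the array and were not tested. The *Per3* probe was above background on control replicate 3 alone, with a deposited signal between 102 and 124 over the 6 arrays. *Cry1*, which encodes a cryptochrome that partners the PER proteins, was above background on no array, with a signal between 92.5 and 132. The brighter *Cry2* probe gave 124, 129 and 119 on control arrays and 128, 118 and 168 on PTH arrays. It was above background on PTH replicates 1 and 3 and on no control array, and it was not tested. Its groups overlapped, with the deposited signal of PTH replicate 2 below that of every control array. The dimmer *Cry2* probe was above background on no array.

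**Figure D3:**
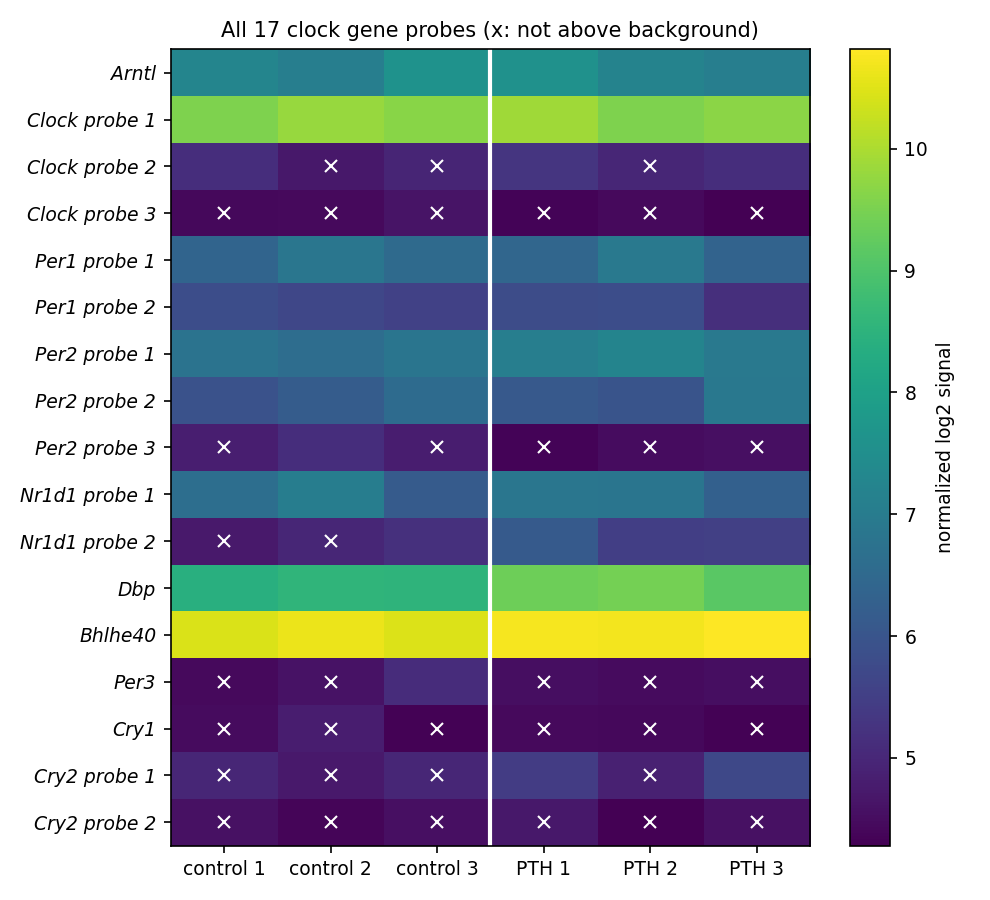
Normalized log2 signal (colour scale) of all 17 clock gene probes, numbered within a gene from bright to dim, on the 3 control and 3 PTH arrays, with a cross where the detection p was 0.05 or more. *Cry1* and the dimmest probes of *Clock* and *Cry2* carry crosses on all 6 arrays.

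Beyond the 10 members, 26 other genes of the clock pathway were examined, and 17 of them could be tested. None was called in either direction by its brightest probe (limma), where 1.73% of all genes were. Of the 17, 1 had an unadjusted limma p under 0.05 by its brightest probe, *Gsk3b*, where 14.9% of all genes did. By the methods' t-test on the brightest probes, 0 of the 17 passed even without adjustment. The median log2 change of the 17 genes was 0.14, against 0.01 for all genes tested, with 13 above 0 and 4 below, over a range from -0.36 to 0.36. *Gsk3b*, a kinase that phosphorylates clock proteins, read 7.95, 7.80 and 8.19 in control tubes and 7.52, 7.79 and 7.55 with PTH. The PTH arrays were the 3 lowest after normalization, if by very little at PTH replicate 2. The log2 fold change of *Gsk3b* was -0.36 (SE 0.15, limma adjusted p = 0.32). Over all genes tested, all PTH arrays were below in 10.8% and above in 11.1%. *Noct*, listed as *Ccrn4l* and encoding the rhythmic protein nocturnin, differed by 0.28 (SE 0.14, limma adjusted p = 0.401) on its brighter probe, with all PTH arrays above after normalization. Its dimmer probe differed by -0.13 (SE 0.16, limma adjusted p = 0.77) with overlapping groups. *Timeless*, known from DNA replication as well as the clock, differed by 0.36 (SE 0.21, limma adjusted p = 0.508) with overlapping groups.

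By role, the 2 nuclear receptors tested of 4 had a median log2 change of 0.17, and the 2 PAR bZIP and related output factors tested of 3, *Tef* and *Nfil3*, one of -0.02. *Tef*, a relative of *Dbp*, differed by 0.16 (limma adjusted p = 0.77) and *Nfil3*, which opposes *Dbp* at D-boxes, by -0.19 (limma adjusted p = 0.6). The kinases and degradation factors, 6 tested of 8, had a median of -0.05. The output and metabolic genes, 4 tested of 5, had a median of 0.12. The other repressors, 3 tested of 4, had a median of 0.33. Among the repressors *Ciart*, listed as *Gm129* and named here after its values were seen, had 2 tested probes of opposite sign, 0.33 on the brighter (limma adjusted p = 0.529) and -0.44 on the dimmer (limma adjusted p = 0.176). The dimmer *Ciart* probe was detected on all 6 arrays. It had all PTH arrays below control after normalization, at an unadjusted limma p of 0.0105. The other 9 pathway genes, among them *Npas2*, *Arntl2*, *Rorb*, *Hlf*, *Bhlhe41*, *Fbxl21*, *Fbxw11* and *Wee1*, were not tested, being above background on fewer than 3 arrays.

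**Figure D4:**
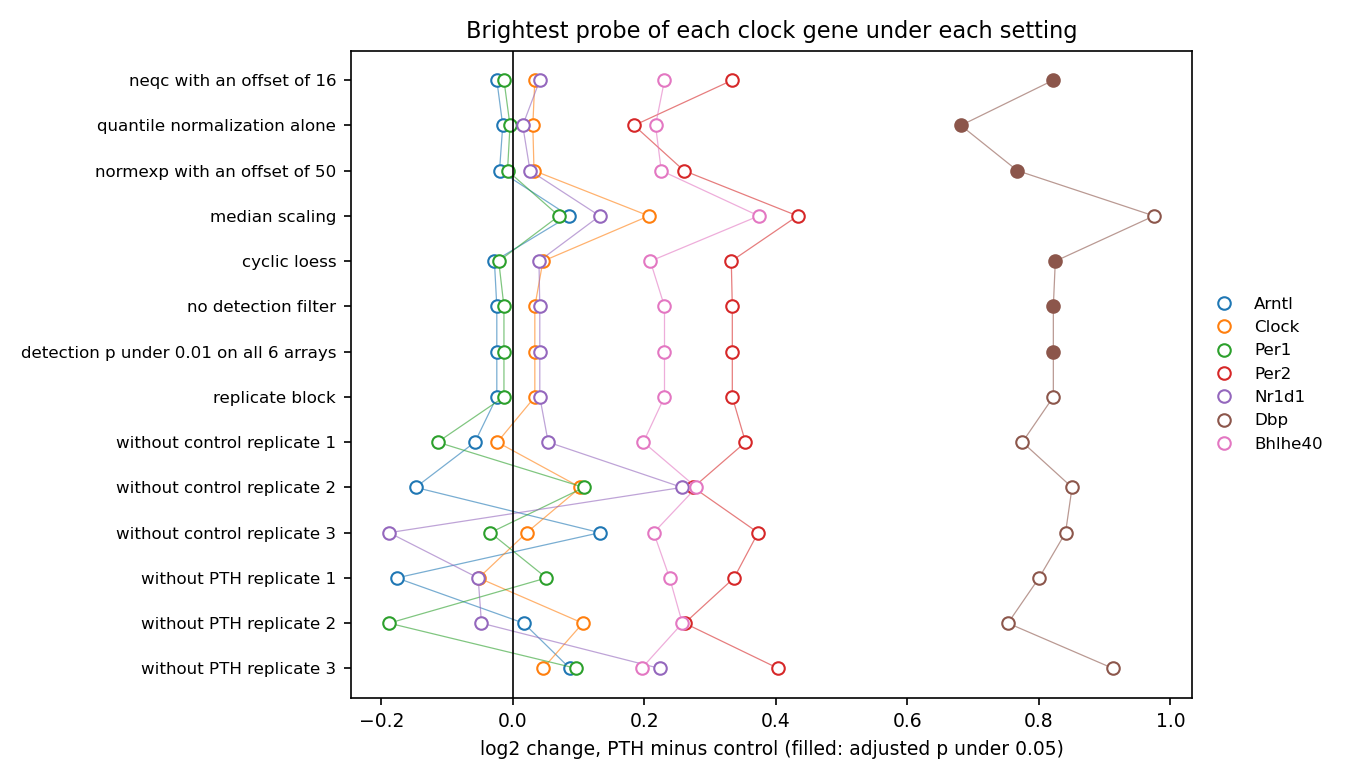
Log2 change (PTH minus control) of the brightest probe of the 7 clock genes tested (x axis) under each processing setting and with each array left out (y axis), filled where the limma adjusted p is under 0.05. *Dbp* lies between 0.68 and 0.98 in all of them and is filled under most settings that keep all arrays, while the other genes are not filled under any setting drawn.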

How the data were processed

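RNA of bone tubes was hybridized to Illumina mouse bead arrays, 6 in all. The authors deposited linear intensity values, 1 per probe and array, and the submitters' processing notes name GenomeStudio. Array medians differ between 111 and 129, so the quantile normalization described in the methods is not in these values. Beside each intensity they deposited a detection p-value, the rank of the probe among negative controls of its array. Groups were read from the sample titles. All per-sample columns were used.

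Signals were background corrected (normexp through the detection p-values, offset of 16), quantile normalized and taken to log2 with neqc in limma 3.58.1 (R 4.3.3). Probes with a detection p under 0.05 on 3 or more arrays were tested, 16214 of 45281. Groups were compared with lmFit and eBayes, p-values were adjusted by Benjamini-Hochberg over the whole set of tested probes, and a call is an adjusted p under 0.05. Each gene was counted by its brightest tested probe. The number of arrays, 3 a group, limits the precision. The limma fit alone, without background correction, normalization or filter, was tested on simulated data with independent noise between arrays. Probe sequences, slide and time of day were not given in the sources used here.

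The members and gene lists were chosen with earlier results of these data known. All 10 members are named, and of the other pathway genes those called, or otherwise the 3 with the smallest p by brightest probe. *Ciart*, *Tef*, *Nfil3* and the untested pathway genes were named outside this rule, after their values were seen. The marker lists were those of osteocytes and osteoblasts, red cells, neutrophils, B lymphocytes (1 of 6 called higher), macrophages, osteoclasts, skeletal muscle (1 of 6 tested, not called), cartilage (1 of 5 called lower), fat and endothelium. Symbols absent from the array were matched through older names. Alternatives changed the normalization (quantile alone, an offset of 50, cyclic loess, median scaling) or the filter (none, or a detection p under 0.01 on 6 of 6 arrays). Others blocked on replicate number, dropped 1 array at a time, averaged the probes of a gene, or replaced limma by the methods' t-test, which the methods name for comparisons of 2 groups in general and not for the arrays, where a GenomeStudio score was used.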

Additional observations from a re-analysis of the deposited data

How the results depend on the processing

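*Dbp* was the single clock gene called under quantile normalization alone, an offset of 50, cyclic loess, no detection filter, the stricter filter and the mean of a gene's probes. No clock gene was called (0 higher) under median scaling, with the replicate block, in the methods' t-test after Benjamini-Hochberg adjustment, or with any array left out (0 to 0), and the unadjusted t-test put 3 of 7 higher at its threshold, against 7.36% of all genes. None was called lower, and no other pathway gene was called in either direction, under any alternative. The median log2 change of the clock genes was 0.21 under median scaling, 0.21 with the mean of a gene's probes, and between 0.051 and 0.26 with 1 array left out.

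Over all probes 261 were called, 38.3% of them higher with PTH. The count was 725 under quantile normalization alone, 502 with an offset of 50, 138 under median scaling (55.8% higher), 422 with the stricter filter, 117 in the adjusted t-test, 2257 in the unadjusted one, and between 71 and 108 with 1 array left out. With the replicate number as a block it was 64, and *Dbp* had a limma adjusted p of 0.085. The replicate numbers were not taken to pair the arrays, since deviations from the group means correlated by 0.07, 0.06 and 0.27 between arrays of the same number, and not every array correlated best with its own number. The arrays numbered 3 did so in both groups, and they correlated by -0.13 to -0.14 with arrays of the other numbers. The share of probes above background followed the replicate number. It was 34.8%, 36.3% and 38.4% on control arrays 1, 2 and 3, and 34.2%, 36.1% and 38.4% on PTH arrays 1, 2 and 3. The block lowered the SE of the brighter *Nr1d1* probe from 0.25 to 0.14. Whether numbers share a source is not given in the sources used here. The cause of these shifts was not tested. Signals near background limit *Per3*, *Cry1*, *Cry2* and the dimmer probes.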
